A study of Mus musculus with 6 samples.

Results

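The genes described here were selected on measured values: they are the 78 genes of a mouse myotube RNA sequencing table whose RNA lay lower in every RANKL library than in every vehicle library. A member had a mean of 1 or more counts per 1000000 (CPM, a gene's count divided by its library's total) over the 6 libraries, a highest RANKL value below the lowest vehicle value, and a log2 ratio of the mean RANKL CPM to the mean vehicle CPM of at most -0.4. Of 12625 genes in the table, 11926 reached the level, 1400 of these had groups that did not overlap in this direction, and 85 also had the required ratio. A further 8 genes, named as Fbln7, Lgr5, Ndst4, Egr3, Thbs1, Fgf21, Chac1 and Cxcl14, were left out by name, of which 7 met the criteria, which left 78 members. Because the same 6 libraries chose the members, their values are a description and carry no test.

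The libraries came from C2C12 cells, an established line of mouse myoblasts, which in culture fuse to form multinucleated myotubes. All 6 came from myotubes at 5 days of differentiation, followed by 72 h with 100 ng/ml of recombinant mouse RANKL in 3 libraries and with vehicle in the other 3. No strain, age or genetic change is given beyond the line itself, and it is a single cell line in culture. The labels do not say that the replicates were separate cultures, so the p-values measure spread among these 6 libraries alone, part or all of which may be technical. In bulk RNA, fewer cells of a type and less RNA per cell cannot be told apart.

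RANKL is a cytokine of the tumour necrosis factor family whose receptor, RANK, signals through TRAF adaptors to NF-kB and is best known for driving osteoclast formation. A muscle fibre is excited by a nerve at a synapse held together by a special basement membrane, and its resting potential is set by ion channels. Heparan sulphate chains on the surface and in that matrix hold growth factors of the FGF, VEGF and BMP families close to their receptors.

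Total counts per library lay between 32732604 and 39677999. The 8 myotube markers were all measured, and their summed level was 28160 to 29910 CPM in vehicle and 26940 to 27390 CPM in RANKL libraries. Among markers of other cell types, 9 of 10 fibroblast genes were measured, with sums of 5150 to 5324 CPM in vehicle and 5867 to 6632 CPM under RANKL, and 7 of 10 osteoblast genes, with 820 to 866 against 904 to 1020 CPM. For adipocytes 3 of 10 were measured (48.8 to 51.2 against 46.6 to 75.0 CPM), for macrophages and osteoclasts 4 of 12 (20.1 to 22.1 against 22.2 to 24.3 CPM), for endothelium 2 of 8 (1.57 to 2.42 against 2.00 to 2.30 CPM), for neurons 4 of 8 (161 to 167 against 174 to 185 CPM) and for undifferentiated myoblasts 8 of 8 (277 to 283 against 282 to 294 CPM). The defining genes Adipoq, Pecam1, Ptprc, Acp5 and Rbfox3 are not among the genes of the table and are not analysed here. The part of other cell types in the members' values was not tested.

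The members were small differences in RNAs of low level. Their log2 ratios ran from -0.89 for Adra1d to -0.40 for Thbd, with a median of -0.495, and 35 of 78 lay below -0.5. The median over all 11926 genes at the 1 CPM level was 0.03. The members' median vehicle level was 4.67 CPM against 30.5 CPM for all these genes, and per length it was 1.58 RPKM (CPM per kilobase) against 10.3 RPKM. A vehicle mean under 5 CPM was found in 41 members, over 20 CPM in 9 and over 100 CPM in 1, Fam167a, whose role is not established. The share of genes that are members was 2.27% below 5 CPM, 0.979% from 5 to 20 CPM, 0.162% from 20 to 100 CPM and 0.0434% above 100 CPM. The mirror of the rule, for genes higher under RANKL by the same margins, held 296 genes, or 2.48% of 11926. Its share was 9.34% of genes below 5 CPM in vehicle. That share is in part built in, since a gene near 0 in vehicle could reach the 1 CPM level through its RANKL libraries. The lowest vehicle mean of the mirror genes was 0.0258 CPM. Member counts in single libraries ranged from 24 to 6396.

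**Figure D1:**
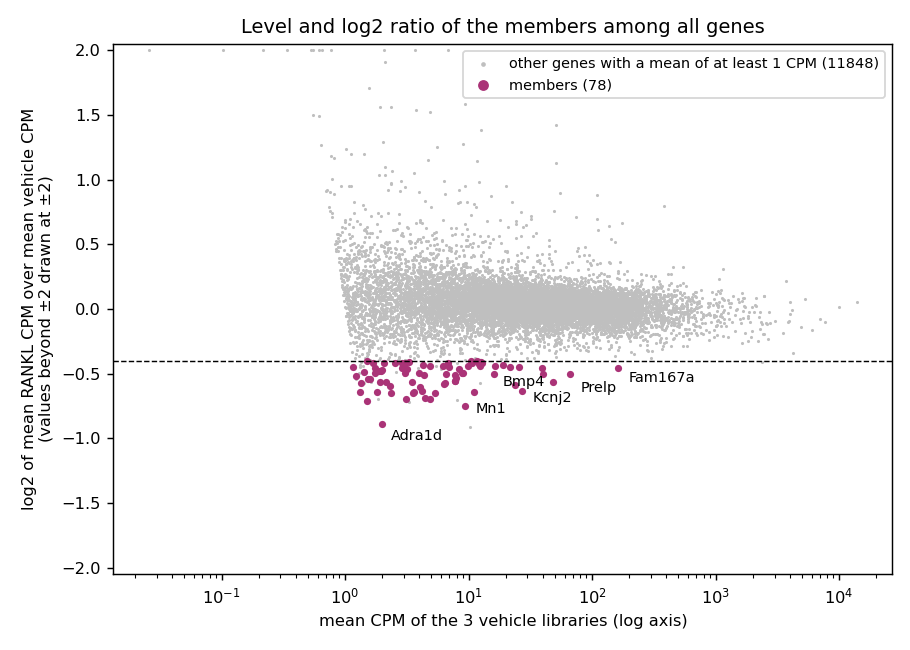
Each point is 1 of the 11926 genes at the 1 CPM level, placed by its mean vehicle CPM (log axis) and its log2 ratio of RANKL over vehicle, with the 78 members coloured and the threshold of -0.4 dashed. The members lie between -0.89 and -0.40 and mostly at the low end of the level axis, while Fam167a stands alone above 100 CPM; grey points below the line had overlapping groups or were left out by name.

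By the criteria alone, 0.713% of the genes at the 1 CPM level were lower in this way, and 11.7% had groups that did not overlap in the lower direction at any size. In edgeR's quasi-likelihood test over all 12625 genes, 947 genes (7.5%) were lower under RANKL and 676 (5.35%) higher at an adjusted p under 0.05. With library totals, the scaling of the rule itself, in place of edgeR's TMM factors, which scale libraries to a common core of genes, it called 626 lower and 1070 higher, so the balance of directions turned. The test called 57 of the 78 members lower and 0 higher, a count that the choice of members fixes in large part and from which nothing is read. The 21 members it did not call had vehicle means of 10.7 CPM (Chrdl1) or less, and most were under 3 CPM. Just inside the threshold stood Thbd, Dhrs3 and Slc37a1, the last of which was not called, at -0.40. Just outside it stood Rasl11b, Otx1 and Cln3 at -0.39, so the edge of the set is not a gap. At the same ratio, 23 other genes were kept out only because their groups overlapped.

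The 3 RANKL libraries did not contribute equally. RANKL replicate 1 was the lowest of the RANKL libraries in 52 of 78 members (66.7%), against 39.7% of all genes at the 1 CPM level. Relative to the vehicle mean, the members' median log2 level was -0.66 in RANKL replicate 1, -0.42 in replicate 2 and -0.43 in replicate 3, while the vehicle libraries had -0.06, 0.02 and 0.04. Summed over the members, the vehicle libraries held 805, 862 and 861 CPM and the RANKL libraries 518, 636 and 642 CPM. Vehicle replicate 1 was the lowest vehicle library in 41 of 78 members (52.6%), against 43.0% of all genes at the 1 CPM level. Without RANKL replicate 1, 50 of the 78 members still met the rule, and the median ratio of all 78 was -0.44. All 78 stayed below 0, which the rule fixes in advance whichever library is left out. RANKL replicate 1 also had the highest sum of the 6 libraries for 6 of the 7 marker sets of other cells: fibroblast (6632 CPM), osteoblast (1020), undifferentiated myoblast (294), neuron (185), adipocyte (75.0) and macrophage and osteoclast (24.3). Whether these levels and the members' values are linked was not tested.

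**Figure D2:**
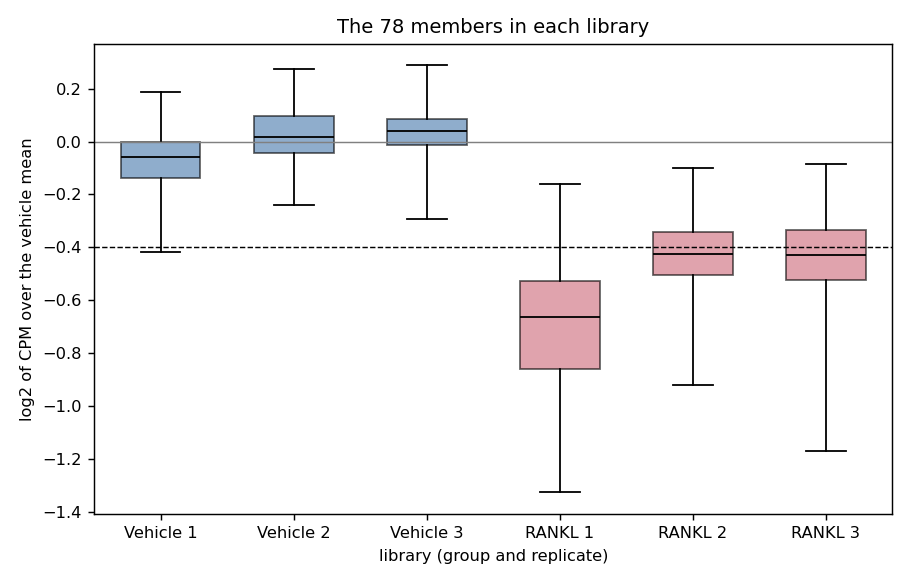
Boxes show the 78 members in each library as log2 of CPM over the mean of the 3 vehicle libraries, with the median as a line, the quartiles as the box and the lowest and highest member as whiskers. RANKL replicate 1 has its median at -0.66, below the medians of -0.42 and -0.43 in the other RANKL libraries; the dashed line marks -0.4.

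By what their products are known to do, the members were sorted by hand into 11 groups. The largest were 10 growth factors, cytokines and their partners, 9 proteins of the cytoskeleton, motors and contractile regulation, and 8 each of ion channels and pumps, of matrix and adhesion proteins, and of transcriptional regulators. Smaller groups were 7 genes of lipid, steroid and retinoid handling, 6 of G protein and cyclic nucleotide signalling and 4 of glycan synthesis. The rest were 6 other membrane proteins, 8 other proteins and 4 unnamed gene models. The groups' median log2 ratios lay between -0.56 for G protein and cyclic nucleotide signalling and -0.44 for lipid, steroid and retinoid handling, a span smaller than the range within most groups.

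**Figure D3:**
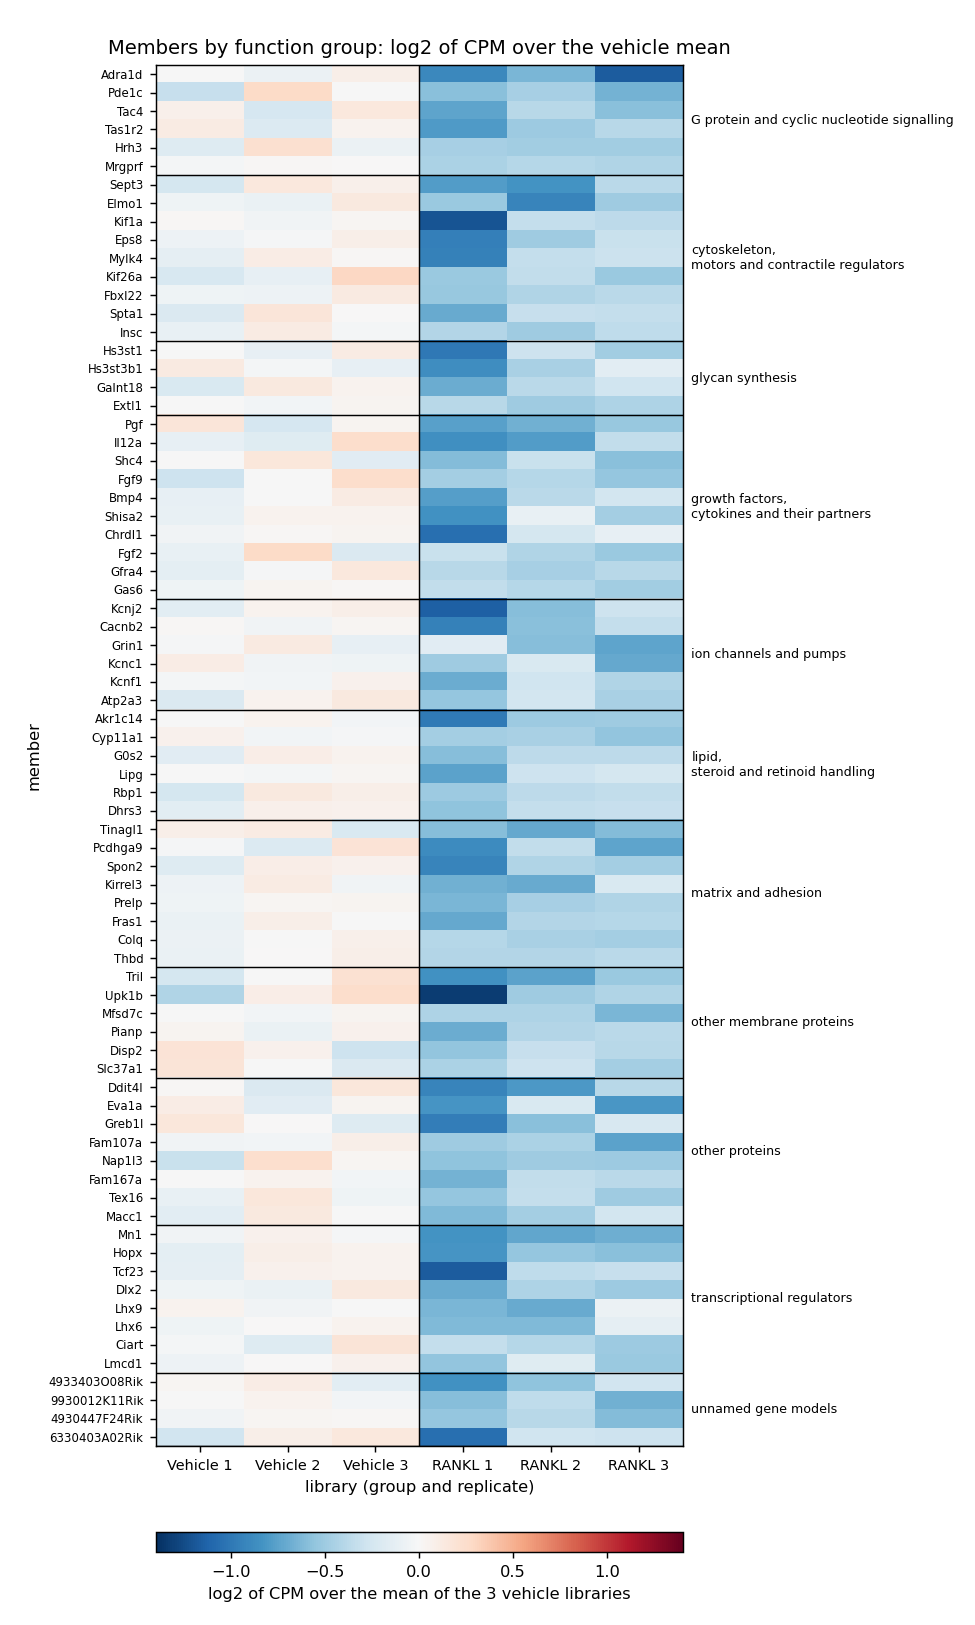
Rows are 75 of the 78 members sorted by function group and ratio, columns are the 6 libraries, and colour is log2 of CPM over the mean of the 3 vehicle libraries (blue lower, red higher). All 3 RANKL columns are blue in every row, as the rule requires, and RANKL replicate 1 is the darkest in most rows.

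Ligands and their partners came from several families rather than from a single pathway. Bmp4, a bone morphogenetic protein, read 36.6, 39.5 and 42.9 CPM in vehicle and 23.3, 30.5 and 33.2 CPM in RANKL libraries, a log2 ratio of -0.45 ± 0.16 (here and below, the standard error from the spread of 3 libraries in each group). RANKL replicate 1 was the lowest by a wide margin, and replicate 3 came close to the vehicle group. Chrdl1, a secreted antagonist of these proteins, showed the same order more steeply, with 10.4, 10.9 and 10.99 CPM in vehicle and 5.18, 9.02 and 9.93 CPM under RANKL (-0.42 ± 0.26). Its ratio was -0.18 without RANKL replicate 1, the nearest to 0 of the 78 members in that setting, and the test over all genes did not call it.

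Pgf, placental growth factor, a ligand of the VEGF family, read 6.05, 4.56 and 5.54 CPM in vehicle and 3.18, 3.37 and 3.73 CPM under RANKL (-0.65 ± 0.14). Here the RANKL libraries sat close together and the vehicle libraries were the more spread. Gas6, the ligand of the Tyro3, Axl and Mertk receptors, was tight in both groups, at 11.9, 12.7 and 12.48 CPM in vehicle and 9.75, 9.38 and 8.83 CPM under RANKL (-0.41 ± 0.05), with replicate 1 the highest of its RANKL libraries. Il12a, the p35 subunit of interleukin 12, had 3.33, 3.19 and 4.27 CPM in vehicle and 1.98, 2.08 and 2.84 CPM under RANKL (-0.64 ± 0.22). The 3 remaining ligands and receptors of the naming rule were low: Fgf2 (basic fibroblast growth factor), Fgf9 and Gfra4, a co-receptor of the GDNF family, all had vehicle means of 3.08 CPM or less and ratios between -0.47 and -0.41. Fgf2 and Fgf9 were not called. Fgf2 shares exons with Nudt6 on the opposite strand, and the use of strand in counting is not given, so its reads cannot be fully assigned.

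Relatives of these ligands that are not members did not move as a family. Vegfc rose by 1.51 ± 0.09 on the log2 scale (adjusted p = 1.34e-07) and Vegfa rose by 0.14 ± 0.04 (adjusted p = 0.0143) in the edgeR test over all genes. Figf, which encodes VEGF-D, was lower as Pgf was (log2 fold change -0.33 ± 0.10, adjusted p = 0.0427), but this call was lost in 6 of the alternatives, with adjusted p up to 0.148. The call of Vegfa was lost without vehicle replicate 2 (adjusted p = 0.0629), vehicle replicate 3 (0.0576) or RANKL replicate 2 (0.0595). Among BMP ligands and antagonists, Nog (noggin, log2 fold change -0.43 ± 0.10, adjusted p = 0.0106), Bmper (-0.30 ± 0.06, adjusted p = 0.00472) and Gdf11 (-0.32 ± 0.05, adjusted p = 0.000846) were lower and Gdf5 was higher (0.23 ± 0.07, adjusted p = 0.0364). Of the 13 measured genes of that list outside the set, 3 were lower and 1 higher, against 7.5% and 5.35% of all genes. The call of Gdf5 was lost without any 1 of the vehicle libraries or RANKL replicate 1 (adjusted p from 0.0979 to 0.113). Axl, a receptor of Gas6, rose by 0.19 ± 0.03 (adjusted p = 0.00256), and Fgf7 rose by 1.00 ± 0.18 (adjusted p = 0.0024). All of these families were listed after the members were known.

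Ion channels and the pump among the members included several that bear on the electrical state of muscle. Kcnj2, the inward rectifier Kir2.1 that helps set the resting potential, read 24.4, 28.1 and 28.7 CPM in vehicle and 12.3, 17.9 and 22.1 CPM under RANKL, a log2 ratio of -0.63 ± 0.25. The RANKL libraries spread widely here, from well under the vehicle group in replicate 1 to just below it in replicate 3. Kcnf1, a subunit that modifies other voltage-gated potassium channels, read 24.9, 24.7 and 26.6 CPM in vehicle and 15.7, 21.0 and 19 CPM under RANKL (-0.45 ± 0.12). Kcnc1, the channel Kv3.1, had 8.997, 8.10 and 8.08 CPM in vehicle and 5.93, 7.27 and 5.10 CPM under RANKL (-0.46 ± 0.16). For Kcnc1 it was replicate 3, not replicate 1, that was lowest.

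Cacnb2, an auxiliary subunit of voltage-gated calcium channels, read 4.13, 3.93 and 4.16 CPM in vehicle and 2.11, 2.71 and 3.24 CPM under RANKL (-0.60 ± 0.18). Grin1, the obligatory subunit of NMDA-type glutamate receptors, and Atp2a3, the SERCA3 calcium pump, lay under 2.2 CPM in every library and were not called.

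In the list of ion channels, 6 of the 87 genes at the 1 CPM level were members (6.90%), against 0.654% of all such genes. The list's median vehicle level was 17.9 CPM, lower than the 30.5 CPM of all genes, and low genes enter the set more often. The count was 6 or 7 whichever single library was left out, but it was not always made up of the same genes. Of the 8 members sorted by hand as ion channels and pumps, 6 still met the rule without RANKL replicate 1 and 5 without RANKL replicate 3. The list's count in the main setting was 6. That count was 5 at a mean CPM of at least 2, 3 at a log2 threshold of -0.5 and 8 at -0.3. Of the 93 measured channels outside the set, the edgeR test called 12 lower and 3 higher, against 7.5% and 5.35% of all genes. Over the whole list of 99, the 18 lower calls became 11 without vehicle replicate 1. In the list for calcium release and excitation, Cacna1s, the pore of the voltage sensor (log2 fold change -0.22 ± 0.03, adjusted p = 0.00059), and Ryr1, the release channel (-0.24 ± 0.05, adjusted p = 0.00353), were lower by less than the members. Among its 30 genes outside the set, 9 were lower and 2 higher, at a median vehicle level of 193 CPM for the whole list. Over the whole list of 32 genes, the 11 lower calls became 6 without vehicle replicate 2 or without RANKL replicate 2, and 16 without RANKL replicate 1.

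Receptors and enzymes of G protein and cyclic nucleotide signalling held the lowest ratio of all. Adra1d, an alpha-1 adrenergic receptor, read 1.99, 1.88 and 2.11 CPM in vehicle and 1.07, 1.28 and 0.886 CPM under RANKL, a log2 ratio of -0.89 ± 0.16. The groups lay well apart, on 63 to 79 counts per vehicle library and 29 to 43 per RANKL library. A gene model overlaps exons of Adra1d on the opposite strand. Mrgprf, an orphan receptor of the Mas-related family, had the smallest standard error of this group. It read 11.9, 12.2 and 12.1 CPM in vehicle and 8.89, 9.14 and 9.01 CPM under RANKL (-0.42 ± 0.02). So small a spread over 3 libraries can fall below counting error and is not a measure of reproducibility. Tas1r2, a subunit of the sweet taste receptor, read 8.37, 6.76 and 7.97 CPM in vehicle and 4.46, 5.42 and 5.87 CPM under RANKL (-0.55 ± 0.15), and it shares exons with a gene model on the same strand. Hrh3, the histamine H3 receptor, and Pde1c, a phosphodiesterase driven by calcium and calmodulin, stayed under 2.3 CPM in every library and were not called. All 6 genes of this group still met the rule without RANKL replicate 1, and 5 without vehicle replicate 2. The list of G protein coupled receptors and RGS proteins had 2 members among 86 genes (2.33%, against 0.654% of all genes). The cyclic AMP list had 2 among 41 (4.88%), and Adra1d is counted in both lists. Both counts were 0 at a mean CPM of at least 2, and with TMM factors the first was 5. Outside the set the test called 10 of 103 lower and 11 higher in the first list, against 7.5% and 5.35% of all genes. In the second it called 8 of 42 lower and 6 higher.

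**Figure D4:**
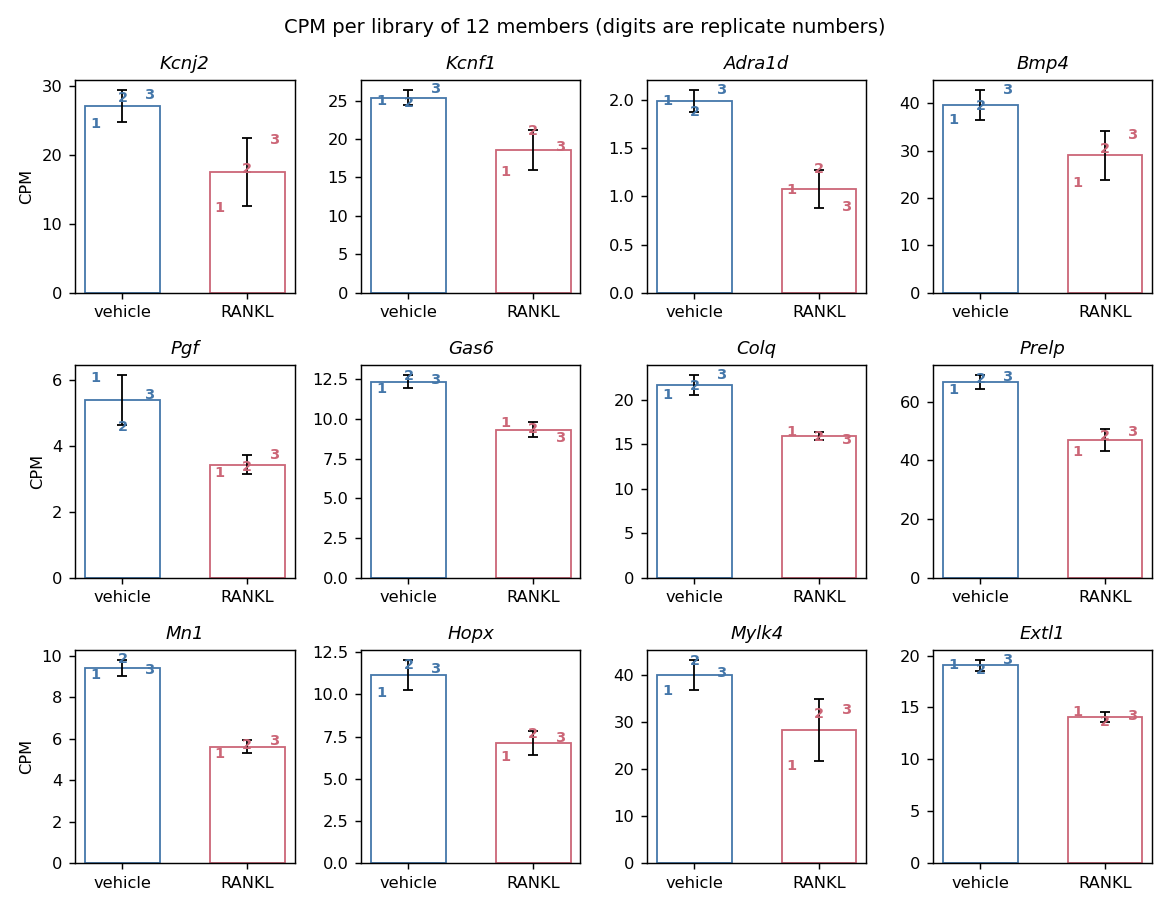
Each panel shows CPM of 1 of 12 members, with bars for the mean of 3 libraries, error bars for the SD and digits for the replicate number. Gas6, Colq and Extl1 have close values within each group, whereas for Kcnj2, Bmp4 and Mylk4 RANKL replicate 1 lies far below replicates 2 and 3.

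Matrix and adhesion proteins included 3 of the more abundant members. Prelp, a leucine-rich repeat proteoglycan that binds basement membranes, read 63.8, 67.8 and 68.2 CPM in vehicle and 42.8, 48.3 and 49.8 CPM under RANKL, a log2 ratio of -0.51 ± 0.07. Spon2, a secreted protein of the spondin family, read 21.2, 25.6 and 25.04 CPM in vehicle and 12.6, 17.9 and 17.3 CPM under RANKL (-0.59 ± 0.17). Colq, the collagen tail that anchors acetylcholinesterase at the neuromuscular junction, had 20.5, 21.6 and 22.8 CPM in vehicle and 16.4, 15.8 and 15.5 CPM under RANKL (-0.45 ± 0.05). For Colq the RANKL libraries nearly coincided and replicate 1 was the highest of them. Colq shares exons with a gene model on the same strand. Fras1, a basement membrane protein, read 15.0, 16.9 and 15.9 CPM in vehicle and 9.72, 12.03 and 12.1 CPM under RANKL (-0.50 ± 0.11). Thbd, thrombomodulin, which turns thrombin towards protein C, closed the range with 10.96, 11.7 and 12.4 CPM in vehicle and 8.81, 8.79 and 8.98 CPM under RANKL (-0.40 ± 0.05).

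Kirrel3, an immunoglobulin adhesion protein, and Tinagl1, a matrix glycoprotein, had ratios of -0.51 ± 0.18 and -0.64 ± 0.11. Pcdhga9, a clustered protocadherin at -0.64 ± 0.20, shares its constant exons with the rest of the gamma cluster, so its 26 to 56 counts per library cannot be assigned to it with certainty. Across the list of extracellular matrix proteins, 3 of 100 genes at the 1 CPM level were members (3.00%, against 0.654% of all genes), a count that became 5 without RANKL replicate 1 or RANKL replicate 3 and 7 at a log2 threshold of -0.3. Of the 102 measured genes outside the set the test called 17 lower and 25 higher. Calls in both directions were also found in each leave-one-out fit, where the whole list's 20 lower calls became 12 without vehicle replicate 1 or 2 and its 25 higher calls became 16 without vehicle replicate 2 or 3. For the neuromuscular junction list, Colq was the only member of 18 genes, and of the other 17 the test called 7 lower and 0 higher, against 7.5% and 5.35% of all genes. This list's median vehicle level was 196 CPM against 30.5 CPM for all genes. These included Lrp4, the agrin receptor (log2 fold change -0.32 ± 0.04, adjusted p = 0.000143), and Erbb3, a neuregulin receptor (-0.22 ± 0.03, adjusted p = 0.000552), both lower by less than any member. With library totals in place of TMM factors the whole list had 6 lower in place of 8, and it had 5 without vehicle replicate 1, without vehicle replicate 2 or without RANKL replicate 2, with 0 higher in each.

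Enzymes that build glycans gave 4 members. Extl1, a glycosyltransferase of the exostosin family, read 19.1, 18.6 and 19.6 CPM in vehicle and 14.6, 13.6 and 14.1 CPM under RANKL, a log2 ratio of -0.44 ± 0.04, with no approach of the groups. Galnt18, of the mucin-type O-glycan family, had 5.39, 6.88 and 6.46 CPM in vehicle and 3.85, 4.79 and 5.13 CPM under RANKL (-0.44 ± 0.16). Hs3st1 (-0.56 ± 0.21) and Hs3st3b1 (-0.46 ± 0.22), sulphotransferases that finish heparan sulphate chains, stayed at or below 2.08 CPM and were not called. The heparan sulphate and glycan list had 4 members among 49 genes (8.16%, against 0.654% of all genes). The count was 1 without RANKL replicate 1 and 5 without RANKL replicate 2 or 3. Of the 46 measured genes outside the set the test called 8 lower and 3 higher, against 7.5% and 5.35% of all genes, and the 10 lower calls of the whole list became 6 without vehicle replicate 2. Sulf2, an enzyme that trims sulphate from these chains, was lower (log2 fold change -0.36 ± 0.06, adjusted p = 0.000773), and Ext1, which elongates them, rose by 0.24 ± 0.03 (adjusted p = 0.000223).

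Transcriptional regulators among the members were mostly developmental factors of low level. Mn1, a transcriptional coregulator, was the most evenly separated of those with a low ratio, at 9.07, 9.83 and 9.32 CPM in vehicle and 5.26, 5.69 and 5.87 CPM under RANKL (-0.75 ± 0.06). Hopx, a small homeodomain protein that does not bind DNA, read 10.1, 11.8 and 11.5 CPM in vehicle and 6.30, 7.65 and 7.42 CPM under RANKL (-0.64 ± 0.11), and a noncoding gene, Hopxos, overlaps it on the opposite strand. Lmcd1, a LIM and cysteine-rich domain protein of muscle, had 12.1, 12.8 and 13.3 CPM in vehicle and 8.65, 11.3 and 8.83 CPM under RANKL (-0.41 ± 0.13), with replicate 2 set apart from the other RANKL libraries. Tcf23, a bHLH protein (-0.57 ± 0.25), had 2.86 CPM in RANKL replicate 1 but 5.00 and 5.13 in the others, against 5.90 to 6.70 in vehicle. Lhx6 (-0.44 ± 0.17), Lhx9 (-0.45 ± 0.21) and Dlx2 (-0.54 ± 0.11), homeobox factors, all lay under 4.5 CPM, and Ciart, a repressor of the circadian clock, under 3 CPM. Lhx9, Dlx2 and Ciart were not called. The list of developmental transcription factors had 5 members among 131 genes (3.82%), and the list of zinc finger factors had 0 among 405, against 0.654% of all genes. The count of 5 became 3 without RANKL replicate 1, and also at a mean CPM of at least 2 or a log2 threshold of -0.5. Of the 8 transcriptional members, 4 still met the rule without RANKL replicate 1 and 5 without RANKL replicate 3.

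The cytoskeletal and contractile group held Eps8, which caps and bundles actin filaments, at 46.0, 47.8 and 51.3 CPM in vehicle and 24.9, 34.3 and 39.0 CPM under RANKL (-0.56 ± 0.19). Mylk4, a myosin light chain kinase, read 36.8, 43.0 and 40.6 CPM in vehicle and 20.8, 31.7 and 32.6 CPM under RANKL (-0.50 ± 0.20). In both genes RANKL replicate 1 stood far below the others. Fbxl22, an F-box protein of the sarcomere, was tighter, at 6.70, 6.64 and 7.64 CPM in vehicle and 4.83, 5.21 and 5.38 CPM under RANKL (-0.44 ± 0.08). Sept3, a septin best known from neurons (-0.65 ± 0.19), Elmo1, a partner of Dock proteins in Rac activation (-0.63 ± 0.15), and Kif1a, a kinesin of axonal transport (-0.58 ± 0.26), lay under 6.5 CPM. At the 1 CPM level 0 of 57 sarcomere genes and 0 of 30 myogenic regulators and fusion genes were members, and with 0.654% of all genes in the set lists of this size can be expected to hold few or none. The edgeR test called 18 of the 59 measured sarcomere genes lower and 7 higher, against 7.5% and 5.35% of all genes, and this list's median vehicle level was 506 CPM against 30.5 CPM. With library totals the sarcomere calls were 13 lower and 10 higher. Without vehicle replicate 2 there were 10 lower and 2 higher, and the higher calls became 1 without vehicle replicate 1 or 3 and 4 without RANKL replicate 1 or 2. Of the 31 measured myogenic regulators and fusion genes, 6 were called lower and 3 higher.

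Promoters are shown for the members in which a CArG box or a MEF2 site was found, all 5 of which belong to the transcriptional or the cytoskeletal group above. RefSeq promoter windows on GRCm38.p6, 250 bases before to 50 after the annotated start, matched 54 of the 78 members and 9559 genes at the 1 CPM level. With fewer than 80% of the members matched, a comparison of promoter composition is void, and the shares describe the matched members only. The CArG box, the motif of serum response factor, was found in 3 of 54 (5.56%; Hopx, Lmcd1 and Fbxl22) and in 1.30% of all matched promoters. The MEF2 site was found in 2 of 54 (3.70%; Elmo1 and Mylk4) and in 1.89% of all. Both motifs were searched by their usual degenerate form on both strands. The lines give the 250 bases before each start, from 5′ to 3′ on the gene's strand, with CArG and MEF2 matches in capitals and, in Elmo1, an NF-kB match as the second run in capitals. Matches of the other motifs below are left in lower case.
Hopx: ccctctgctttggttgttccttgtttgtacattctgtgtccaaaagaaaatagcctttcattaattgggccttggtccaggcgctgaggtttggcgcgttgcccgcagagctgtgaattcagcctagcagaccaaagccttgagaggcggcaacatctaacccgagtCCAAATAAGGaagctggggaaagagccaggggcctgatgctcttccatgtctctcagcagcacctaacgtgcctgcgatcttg
Lmcd1: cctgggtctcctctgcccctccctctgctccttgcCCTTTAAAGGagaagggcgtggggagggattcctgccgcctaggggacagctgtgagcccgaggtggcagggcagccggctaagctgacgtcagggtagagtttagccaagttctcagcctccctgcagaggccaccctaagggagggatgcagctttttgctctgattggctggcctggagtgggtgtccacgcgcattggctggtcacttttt
Fbxl22: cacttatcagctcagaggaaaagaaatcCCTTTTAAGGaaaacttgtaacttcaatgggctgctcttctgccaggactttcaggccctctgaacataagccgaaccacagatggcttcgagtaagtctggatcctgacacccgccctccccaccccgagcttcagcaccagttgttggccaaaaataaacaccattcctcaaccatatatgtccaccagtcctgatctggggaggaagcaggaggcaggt
Mylk4: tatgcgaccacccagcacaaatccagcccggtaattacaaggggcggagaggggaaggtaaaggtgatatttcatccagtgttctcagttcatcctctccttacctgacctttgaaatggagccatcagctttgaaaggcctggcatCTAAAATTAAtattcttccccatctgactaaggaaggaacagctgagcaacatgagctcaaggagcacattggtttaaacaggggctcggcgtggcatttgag
Elmo1: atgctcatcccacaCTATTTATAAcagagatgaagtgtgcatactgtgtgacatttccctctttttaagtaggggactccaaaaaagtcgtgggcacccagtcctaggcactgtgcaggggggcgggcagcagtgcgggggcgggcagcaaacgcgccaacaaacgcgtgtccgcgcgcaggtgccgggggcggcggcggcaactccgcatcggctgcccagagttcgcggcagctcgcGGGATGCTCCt
In that order the windows lie at chr5:77115124-77115373 (minus strand), chr6:112273508-112273757 (plus strand), chr9:66514594-66514843 (minus strand), chr13:32783965-32784214 (minus strand) and chr13:20090257-20090506 (plus strand). A match is a string of letters and not evidence of binding. The shares of the other motifs lay on both sides of those of all promoters. The NF-kB site was found in 6 of 54 members (11.1%) and 10.1% of all, CCAAT in 38.9% and 38.7%, the E-box CAGCTG in 20.4% and 15.0%, CATTCC (TEAD) in 16.7% and 11.8%, TGANTCA (AP-1) in 7.41% and 4.69%, GTGGGAA (RBPJ) in 9.26% and 6.10%, GGGCGG in 51.9% and 65.8%, TGACGT (the cyclic AMP response element core) in 5.56% and 12.4%, CTTTGA (TCF) in 5.56% and 11.5%, and TATAAA in 5.56% and 6.91%. TATAAA can overlap a MEF2 site. Only the window's letters were searched.

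Lipid, steroid and retinoid handling was represented by G0s2, the inhibitor of adipose triglyceride lipase, at 14.7, 17.5 and 17.0 CPM in vehicle and 10.8, 12.7 and 12.7 CPM under RANKL (-0.44 ± 0.11). Lipg, endothelial lipase, read 12.7, 12.54 and 13.1 CPM in vehicle and 7.58, 10.4 and 10.7 CPM under RANKL (-0.41 ± 0.15). The reductase Dhrs3, which turns retinal to retinol, had 9.48, 11.02 and 10.9 CPM in vehicle and 7.10, 8.28 and 8.37 CPM under RANKL (-0.40 ± 0.10). Akr1c14, a hydroxysteroid dehydrogenase (-0.65 ± 0.15), and Cyp11a1, which cleaves the cholesterol side chain (-0.49 ± 0.04), lay under 3.7 CPM. The test did not call Cyp11a1, whose small standard error rests on 39 to 72 counts per library.

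Of the 7 genes of this group, 2 still met the rule without RANKL replicate 1, 3 without vehicle replicate 2 and 4 without vehicle replicate 3. The list of cholesterol and lipid synthesis had 1 member among 44 genes (2.27%, against 0.654% of all genes), which became 0 without RANKL replicate 1 or vehicle replicate 2 and 2 without RANKL replicate 3. The test called 14 of the other 43 lower and 0 higher, against 7.5% and 5.35% of all genes, and the list's median vehicle level was 105 CPM against 30.5 CPM. Among them Insig1, a sterol sensor, had a log2 fold change of -0.36 ± 0.08 (adjusted p = 0.00895, but 0.0763 in DESeq2). For the whole list of 44 the 15 lower calls became 8 without vehicle replicate 1 or without vehicle replicate 2, 23 without RANKL replicate 3, and 11 with library totals, where 1 was higher. Angptl4, an inhibitor of lipoprotein lipase, rose by 1.23 ± 0.10 (adjusted p = 4e-06), so lipase regulators stood on both sides.

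Of the remaining members, Ddit4l, a relative of Ddit4 that restrains mTORC1, read 4.54, 3.87 and 5.00 CPM in vehicle and 2.35, 2.56 and 3.42 CPM under RANKL (-0.69 ± 0.20). Tril, a leucine-rich repeat partner of Toll-like receptors, read 2.62, 3.098 and 3.62 CPM in vehicle and 1.74, 1.85 and 2.17 CPM under RANKL (-0.70 ± 0.17). In both, RANKL replicate 3 came nearest to the vehicle group. Upk1b, a uroplakin of the tetraspanin family (-0.70 ± 0.32), varied more than any of these, from 3.65 to 5.78 CPM in vehicle and from 1.95 to 3.64 CPM under RANKL, so its groups almost touched. Fam167a, the most abundant member, read 161, 168 and 158 CPM in vehicle and 103, 128 and 125 CPM under RANKL (-0.45 ± 0.10). Per length it was also the highest, at 38.8 RPKM in vehicle, followed by Bmp4 (20.1), G0s2 (19.7) and Prelp (18.7). The 4 unnamed gene models had ratios between -0.54 and -0.50.

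**Figure D5:**
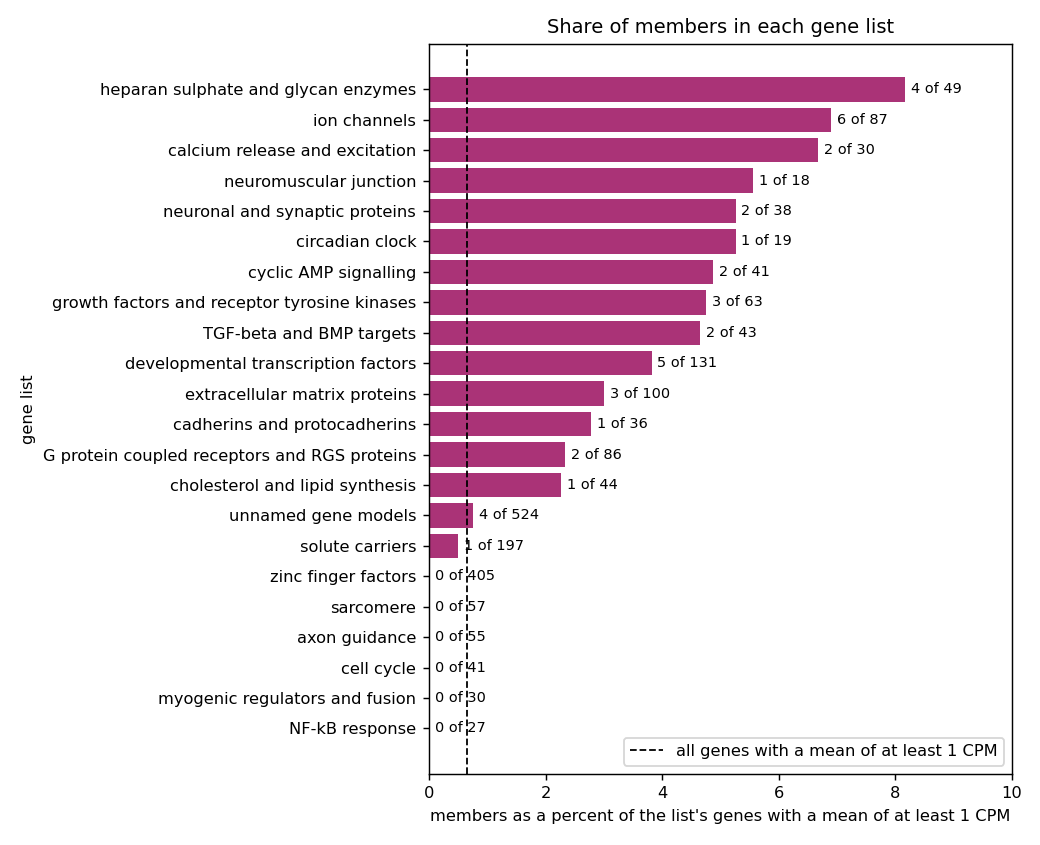
Bars give, for the broad gene lists with at least 1 member and for 6 with none, the members as a percent of the list's genes at the 1 CPM level; the dashed line is the 0.654% of all such genes and the counts stand beside the bars. Among the lists drawn, glycan enzymes (4 of 49) and ion channels (6 of 87) have the longest bars; small families listed after the members were known, some with larger shares, are not drawn. Most bars rest on 1 or 2 genes, lists differ in level, and no test was made. Lists share genes. Adra1d counts in the bars for cyclic AMP and for G protein coupled receptors, and Kcnj2 and Kcnc1 in those for ion channels and for calcium release.

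The members were spread over the genome. On the mm10 build they mapped to 18 chromosomes, and 3 pairs lay within 1000000 bases of each other. Adra1d (chr2:131545850-131562283) and Gfra4 (chr2:131039632-131043088) were 502762 bases apart, and Pgf (chr12:85166635-85177790) and Mfsd7c (chr12:85746539-85813585) were 568749 bases apart. On chromosome X, Tex16 (chrX:112011007-112127326) and 4933403O08Rik (chrX:112239049-112243852) were 111723 bases apart, and both share exons with the gene model Gm45194 on their strand, so their reads may not be separate. Exons overlapped another gene on the same strand in 10 members and on the opposite strand in 16, and 77 of the 78 were annotated as protein coding. Members with such overlap also include Akr1c14, Cyp11a1 and Lhx6 on the same strand and Bmp4, Prelp and Gas6 on the opposite strand. The members' median length was 3476 bases against 2991 for all genes at the 1 CPM level, and the median GC content of their longest transcript was 52.5% against 49.7%.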

How the data were processed

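RNA was measured by sequencing in 6 C2C12 libraries, paired-end with 75 bases per read per the labels' protocols. FastQC, STAR, edgeR and the mm10 build are named in the submitters' processing notes; how reads were counted, with which annotation and strand setting, is not stated in the labels or headers used. The authors deposited a table of raw counts per gene symbol for 12625 genes, followed by 4708 lines with no gene, which were left out. They also deposited a table of log2 values, which on comparison with the counts are log2 RPKM; this reading rests on the values, and the table was used only for levels per length.

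CPM used library totals for the rule and for all levels. A ratio is the log2 of the mean RANKL CPM over the mean vehicle CPM, with its standard error taken from the SDs of 3 libraries per group. The test across all genes was edgeR 4.0.16 (R 4.3.3) with TMM factors of 0.980 to 1.01, Benjamini-Hochberg adjustment of its quasi-likelihood test at 0.05, and its fold changes are given with the standard error from F. The test was also run on data made to resemble the RANKL and vehicle libraries over 12625 genes. It recovered 88% of 100 changes of log2 -0.5 and 100% of 100 changes of log2 -1, and it also called 22 unchanged genes. The changed genes were drawn from all genes of at least 1 CPM. Recovery at the lower levels of the members was not tested. DESeq2 1.42.0, limma 3.58.1 (voom), other scalings, thresholds and left-out libraries were alternatives. The chi-square per gene between replicates was 3.42 to 9.62, more than counting noise gives, and all 6 libraries were kept as separate. In both groups it was smallest between replicates 2 and 3 (3.42 in vehicle, 3.51 in RANKL). Pairs with replicate 1 gave 5.8 and 8.53 in vehicle and 6.1 and 9.62 in RANKL.

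The members and the gene lists were chosen with earlier results of these data known. The naming rule took the 12 members of lowest ratio, the 12 of highest level per length, up to 3 per list by level, 3 on each side of the threshold, and members within 1000000 bases of another. Fbxl22, Elmo1, Kif1a, Tas1r2, Cacnb2, Atp2a3, Hs3st3b1, Dlx2, Lhx9, Lipg, Cyp11a1, Gas6 and the genes outside the set were named after their values were seen. Positions come from GENCODE M21, promoters from RefSeq on GRCm38.p6. Results of some genes are not reported here.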

Additional observations from a re-analysis of the deposited data

How the results depend on the processing

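The rule held 145 genes at a log2 threshold of -0.3, 35 at -0.5, 97 with TMM factors, 56 and 106 with a mean CPM of at least 2 and 0.5, and 70 to 118 when each library was left out in turn, of which RANKL replicate 1 gave the fewest and RANKL replicate 3 the most. The median ratio of the genes meeting it was -0.41 at the threshold of -0.3, -0.59 at -0.5 and between -0.53 and -0.47 with each library left out. With library totals in place of TMM factors, edgeR called 626 genes lower and 1070 higher, so the balance of directions over all genes turned with the scaling. Leaving out each library gave 537 to 880 lower and 373 to 746 higher, with the fewest without vehicle replicate 2, and 37 to 53 of the members called lower. DESeq2 called 809 genes lower, 535 higher and 45 members lower. The 61 members named by the rule or in the text had estimates below 0 in all 793 fits of a member under the 13 alternatives of the test. The choice of members fixes these signs, since the groups of no member overlap, and nothing is read from them. Whether replicate numbers pair the samples was not settled. Same-numbered libraries had correlations of 0.133, 0.058 and 0.010 in their deviations, and differently numbered libraries had -0.126 to 0.071. With the replicate block, 1008 genes were lower, 730 higher and 59 members called lower. Alternatives on single lists and on RANKL replicate 1 were chosen after seeing the data. At members of 24 to 100 counts per library, counting error alone limits the precision of a ratio. A standard error from the spread of 3 libraries per group can fall below counting error by chance, also at higher counts.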
